A study of Mus musculus with 2 samples.

Results

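The microRNA genes described here lie in 1 intron of Sfmbt2, a mouse gene for a Polycomb group protein with MBT repeats. They were taken by position: all genes of type microRNA on the plus strand of chromosome 2 between 10.37 and 10.6 Mb (mm10, positions from GENCODE M21). The annotation places 119 microRNA genes in this window, and 107 of them have an identifier among the 1973 microRNA genes of the deposited tables. The other 12, which are Mir466b-1, Mir466c-1, Mir466e and Mir669a-4 to Mir669a-12, were not analysed here. Small RNA, per the labels shorter than 30 nucleotides, had been sequenced from forebrain of B6NCrl mouse embryos at 13.5 days, with male and female tissue pooled and no treatment named. There were 2 libraries of this 1 group, called biological replicates 1 and 2 by the labels. They carry separate biosample identifiers under a shared donor identifier. The number of embryos in a pool is not stated, and the spread between the libraries may in part be technical.

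Sfmbt2 is an imprinted gene, transcribed from the paternal allele in the extraembryonic tissues of the mouse. Its long intron carries an array of microRNA hairpins of the Mir297, Mir466, Mir467 and Mir669 families, which arose by repeated duplication in rodents and are best known from the trophoblast and placenta. A microRNA is cut from a hairpin in its primary transcript, and the bases near its 5′ end, the seed, pair with target messages. The allele of origin was not measured in these libraries.

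Mature sequences of relatives at other loci are printed to show the repeat letters of these families. Of the 107 genes in the intron, 0 matched the RefSeq microRNA table by symbol. For relatives outside the window it gave 8 mature sequences (GRCm38.p6), all printed here 5′ to 3′, with the seed (bases 2 to 8) in capitals.
mmu-miR-467h, chr9:115381898-115381919, plus strand: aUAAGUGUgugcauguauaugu
mmu-miR-467f, chr11:69635419-69635439, minus strand: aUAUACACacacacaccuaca
mmu-miR-467g, chr5:34732872-34732892, minus strand: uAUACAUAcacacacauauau
mmu-miR-466i-3p, chr13:17747552-17747573, plus strand: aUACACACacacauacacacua
mmu-miR-466k, chr3:85467396-85467418, plus strand: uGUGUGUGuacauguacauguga
mmu-miR-466j, chr10:60960802-60960824, plus strand: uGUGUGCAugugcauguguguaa
mmu-miR-466q, chr3:28419988-28420007, plus strand: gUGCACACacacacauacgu
mmu-miR-669n, chr3:115979905-115979924, plus strand: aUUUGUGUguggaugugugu

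Each of these is made largely of UG or CA repeats. The printed seeds were searched as exact letters on the transcribed strand of the annotated hairpins, where matches of different seeds can overlap. The seed AUACAUA of miR-467g was found in 66 of the 107 intron hairpins (61.7%), against 6.49% of all 2202 annotated microRNA hairpins. All shares over the 2202 include the intron hairpins. For AUACAUA they are 66 of the 143 hairpins with a match. GUGUGCA, the seed of miR-466j, was found in 52 (48.6%, against 4.81%), UACACAC, that of miR-466i-3p, in 51 (47.7%, against 8.17%), and GUGUGUG, that of miR-466k, in 38 (35.5%, against 9.54%). The seed UGCACAC of miR-466q was in 30 (28.0%, against 2.63%). The seed UAUACAC of miR-467f was in 27 (25.2%, against 5.13%) and UUUGUGU of miR-669n in 10 (9.35%, against 2.59%). The seed UAAGUGU of miR-467h was in 1, Mir467e (0.935%, against 0.636%), so these shares were near each other. None of the printed sequences was found whole in an intron hairpin, that is, each had 0 exact matches. A match of letters is a description and not a processed arm.

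The hairpins of the cluster span 53.0 kb, from 10465287 to 10518279, in 1 intron of the annotated Sfmbt2 transcripts that extend across it. The exon before it ends at 10461472 and the exon after it starts at 10523945, which leaves an intron of 62.5 kb. These are exons 10 and 11 of 1 annotated transcript and exons 11 and 12 of another, and each of these transcripts has 23 exons. All the members lie inside this intron and on the strand of the host gene. By name 5 belong to the Mir297 family, 20 to Mir466, 14 to Mir467 and 20 to Mir669, and 48 carry a Gm symbol with no family. Of those 48, 43 share an exact stretch of at least 20 nucleotides with a Mir669 hairpin of the window, 27 with a Mir466, 2 with a Mir297 and 1 with a Mir467 hairpin. The array is periodic. Neighbouring starts of the 11 Mir467a and Mir467b genes were 2413 to 4880 nucleotides apart, with a median of 2454. The longest spacing, from Mir467a-9 to Mir467a-10, holds Gm25022, whose hairpin is identical to that of Mir467a-2.

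Reads were counted on few of these genes. A total of 24 of the 107 (22.4%) had at least 1 count in either library, against 36.5% of the 1973 genes of the whole table, and 83 had 0 in both. By family these were 7 of 20 Mir466, 6 of 20 Mir669, 5 of 14 Mir467 and 1 of 5 Mir297 genes, with 5 of the 48 genes that have no family name. Replicate 1 and replicate 2 each had 21 members with a count, and 18 had one in each library. With at least 10 counts in each library, 10 members (against 19.1% of the table) were detected. All counts lay on the strand of the gene, and reads on the opposite strand numbered 0 over the 107 genes in either library.

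Together the cluster held 16179 of 4117752 gene counts in replicate 1, or 0.393% (95% Wilson interval 0.387 to 0.399). In replicate 2 it held 14654 of 3908953, or 0.375% (0.369 to 0.381). The mean was 0.384% ± 0.0127 (SD, n = 2). Intervals cover counting error only, since amplified reads are not independent molecules. Reads that mapped to several places stand in a row of their own in the tables. They made up 40.6% of the reads of replicate 1 and 43.9% of those of replicate 2. They were taken to add to no gene, so each value below is for reads that could be placed.

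Mir467 genes made up most of the cluster. The family held 12943 counts in replicate 1 and 11920 in replicate 2, which was 80.0% and 81.3% of the cluster, or 3096 ± 66.3 CPM (counts per 1000000 gene counts, mean ± SD, n = 2). Mir669 followed with 3105 and 2617 counts (19.2% and 17.9%, 712 ± 59.8 CPM). Mir466, although it has as many members as Mir669, held 100 and 92 counts (23.9 ± 0.530 CPM), and Mir297 held 11 and 18 (3.64 ± 1.37 CPM). The genes without a family name held 20 and 7 counts in all. The order Mir467, Mir669, Mir466, Mir297 held in each library, and the ranges of the families did not overlap.

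Within the families a few genes held most reads. Mir467c (ENSMUSG00000077049.2, 10473931 to 10474027) was the highest member, with 5078 counts in replicate 1 and 4638 in replicate 2. Its level was 1210 ± 33.0 CPM, rank 88 of the whole table. Mir467d (10507630 to 10507714) had 4200 and 3412 counts (946 ± 104 CPM), and Mir467e (10505721 to 10505807) had 3663 and 3864 (939 ± 70.0 CPM). These 3 genes held 80.0% of the cluster's counts in replicate 1 and 81.3% in replicate 2. The family's remaining counts were 2 and 5 on Mir467b and 0 and 1 on Mir467a-1, while Mir467a-2 to Mir467a-10 were at 0 in both libraries.

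The Mir669 family was led by Mir669o (10514300 to 10514395), with 1491 and 1273 counts (344 ± 25.8 CPM). Mir669l (10468971 to 10469068) had 1119 and 946 (272 and 242 CPM). With these the 5 highest members held 96.1% of the cluster in replicate 1 and 96.4% in replicate 2. Mir669c had 365 and 295 counts (82.1 ± 9.31 CPM), Mir669e 92 and 84 (21.9 ± 0.603 CPM), Mir669h 32 and 14 (5.68 ± 2.96 CPM) and Mir669f 6 and 5 (1.37 ± 0.126 CPM). The other 14 Mir669 genes were at 0.

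In the remaining groups 1 gene each passed 10 counts in the libraries together. Mir466n had 94 and 78 counts (21.4 ± 2.03 CPM), Mir297a-2 had 11 and 18 (3.64 ± 1.37 CPM), and Gm22925 had 10 and 4 (1.73 ± 0.994 CPM). A further 12 members had 1 to 9 counts in all, together 18 in replicate 1 and 23 in replicate 2. Of these, 6 are Mir466 genes, such as Mir466h with 1 and 5 counts and Mir466 with 0 and 4. Gm22239 and Mir466g are the only members whose hairpin shares no stretch of 20 nucleotides with another annotated one, and they had 5 and 1 counts and 3 and 2 counts. For the 83 members at 0 the upper limit is 3 counts (0.729 CPM in replicate 1, 0.767 CPM in replicate 2), counting only reads that can be placed on 1 gene.

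**Figure D1:**
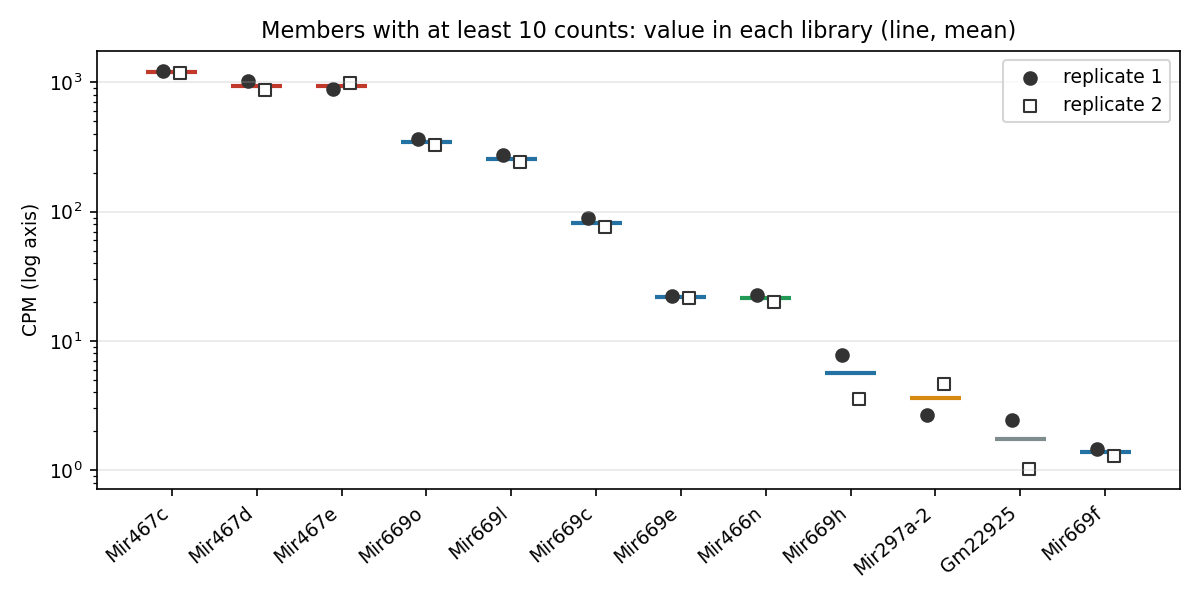
Level in CPM of the 12 members with 10 or more counts over both libraries, on a log axis. Circles are replicate 1, open squares replicate 2 and coloured lines the mean, from 1210 CPM for Mir467c down to 1.37 CPM for Mir669f. The points of both libraries lie close together down to Mir466n and farther apart for Mir669h, Mir297a-2 and Gm22925.

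Per nucleotide of the annotated hairpin the mean counts were 50.1 for Mir467c, 44.8 for Mir467d, 43.3 for Mir467e, 14.4 for Mir669o and 10.5 for Mir669l. They were 3.03 for Mir669c, 0.915 for Mir466n and 0.739 for Mir669e, and below 0.2 for the other 4. In CPM the 12 members spanned 884-fold. Between neighbours in the order of CPM, the values of the libraries overlapped for Mir467d and Mir467e, for Mir669e and Mir466n, for Mir669h and Mir297a-2, and for Gm22925 and Mir669f, so their order was not resolved. The values of the other neighbouring genes did not overlap. Mir467c stood 1.28-fold above Mir467d in CPM, and Mir467e 2.73-fold above Mir669o.

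Along the intron, counts sat on both sides of the middle of the array and hardly in the middle itself. The 17 genes from the left end to Mir467c (8.74 kb) held 6309 and 5694 counts, 39.0% and 38.9% of the cluster. The 30 genes from Mir467e to the right end (12.6 kb) held 9866 and 8954, 61.0% and 61.1%. The 60 genes between them, over 30.3 kb, held 4 and 6 counts, 0.0247% and 0.0409%. The annotation places 72 genes there, and the 12 not analysed here are all among them. In this middle stretch 4 genes had a count and the highest, Mir467b, had 7 in both libraries together. Mir467c and Mir467e, which border the middle stretch, are themselves among the highest members. The bounds of these stretches were chosen after the values were seen.

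**Figure D2:**
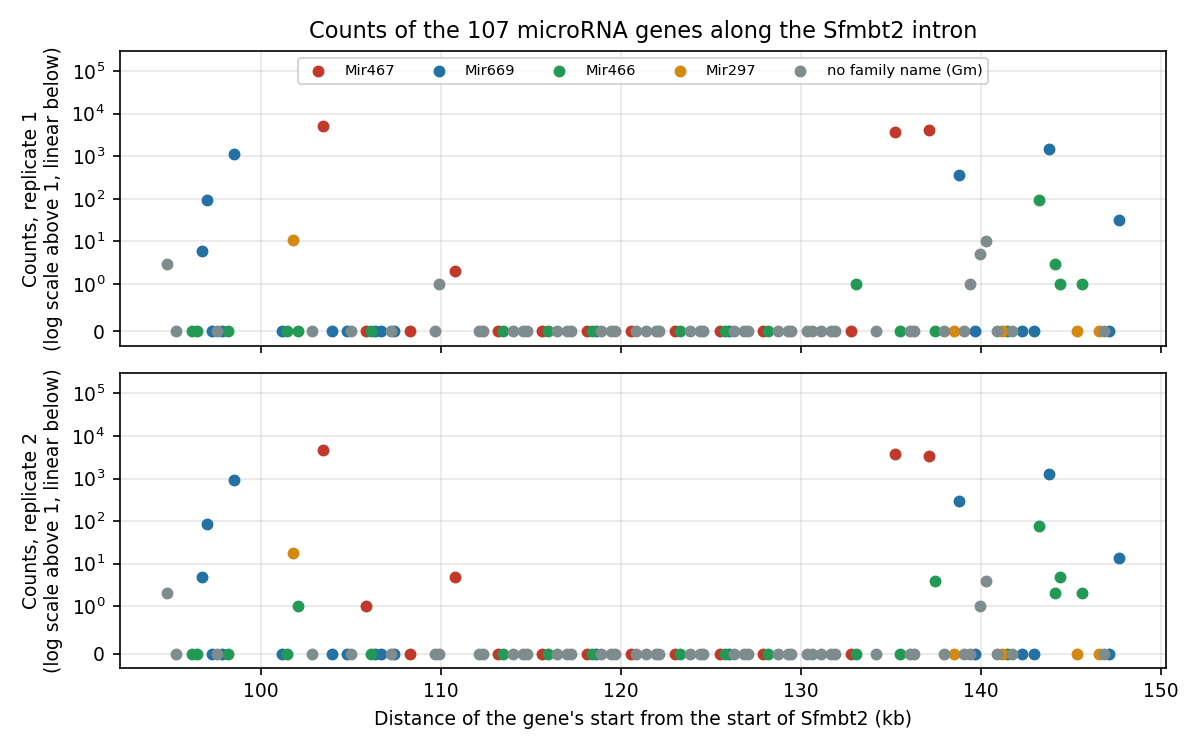
Counts of the 107 members against the distance of each gene's start from the start of Sfmbt2, in kb, for replicate 1 above and replicate 2 below, coloured by family. The count axis is a log scale above 1 and linear below. The members with the most counts lie in the left and right stretches, with Mir467c and Mir467e at the borders of the middle. The 60 genes in the middle reach at most 7 counts over both libraries.

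The middle of the array is also where hairpins are near-identical. Over all 107 members there were 84 distinct hairpin sequences, and 38 members in 15 sets had an identical twin. The largest set held 7 genes, Mir467a-2, Mir467a-4, Mir467a-5, Mir467a-7, Mir467a-8, Mir467a-9 and Gm25022. The 38 genes with a twin had 0 counts in either library. With multi-mapped reads taken to add to no gene, a read inside such a hairpin could not be counted. This 0 therefore follows from the counting and does not show whether these genes were expressed. A stretch of 20 nucleotides was called unshared when no other annotated microRNA hairpin held it in either orientation and its own hairpin did not repeat it. Genes that overlap in position were not counted as other hairpins. In 42 members no stretch was unshared, and 40 of these lie in the middle 60, where the median unshared share was 0%. It was 44.0% in the left and 51.3% in the right stretch.

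Members without any unshared stretch had almost no counted reads. Of those 42, 1 had a count (2.38%), Mir467a-1 with 0 and 1. Of the 65 with at least 1 unshared stretch, 23 had a count (35.4%), and they held all but 1 of the cluster's counts. Over the whole table, these 42 included, 4 of 258 genes without an unshared stretch had a count (1.55%), against 713 of 1636 with one (43.6%). Those 4 held 331 and 244 counts, and the highest had 554 over both libraries. The 12 members with at least 10 counts had an unshared share of 32.4% to 95% (median 54.7%), and the 83 at 0 had 0% to 94.8% (median 1.85%). Yet 42 members with an unshared stretch were at 0 in both libraries. Among them were 10 with more than 50% of their stretches unshared, including Gm23542 at 94.8%, Mir669b at 87.2% and Mir669i at 73.1%. The part of uncounted multi-mapped reads in the values at 0 was not tested. Only annotated hairpins were searched, not the genome.

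**Figure D3:**
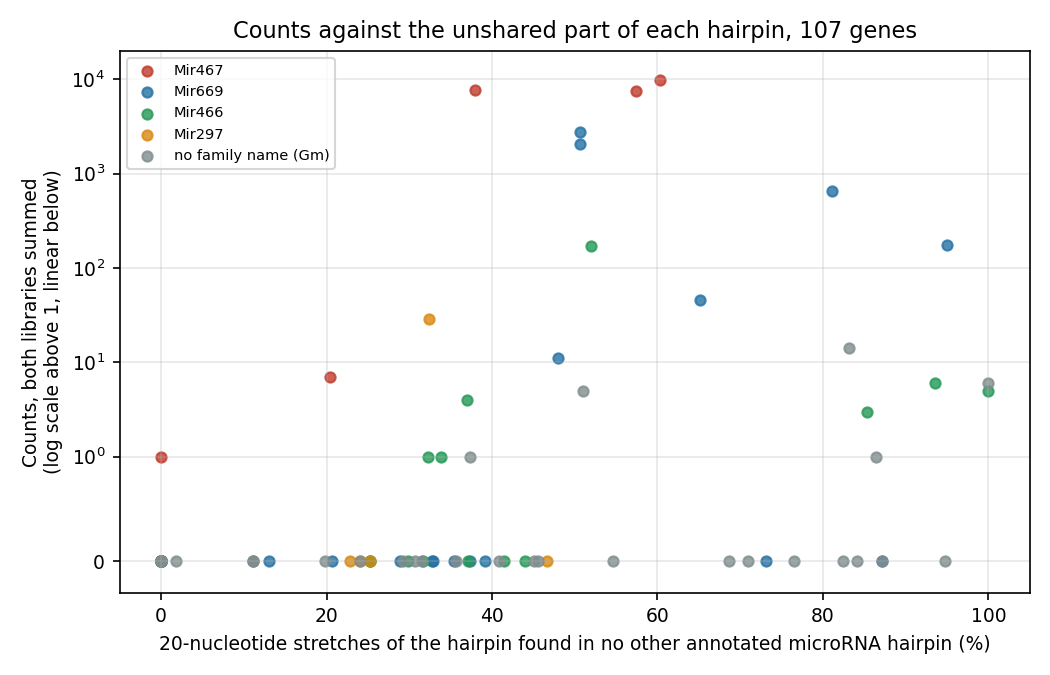
Counts of each of the 107 members, both libraries summed, against the percentage of its 20-nucleotide stretches that were unshared among annotated microRNA hairpins, coloured by family. Members at 0% reach at most 1 count, and the 5 highest members lie between 37.9% and 60.3%.

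The leading genes were themselves close relatives. The longest exact stretch shared by the Mir467c and Mir467e hairpins was 48 nucleotides, and Mir467d shared 34 with each of them. Mir467d shared 55 nucleotides with the hairpin of Mir467a-1, which had 1 count, while Mir467c and Mir467e shared 34 with it. Mir669o and Mir669l shared 20. In Mir467d, 19 of its 25 unshared stretches lay on the 5′ side of the hairpin and 6 on the 3′ side. In Mir467c 17 and 30 of 47 did, and in Mir467e 20 and 19 of 39. In Mir297a-2 all 23 unshared stretches lay on the 3′ side. The tables give 1 count per gene, so the arm from which reads came is not analysed here.

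Other features of the hairpins set counted and uncounted members less clearly apart. Median GC content was 39.7% in the 12 members with at least 10 counts and 38.1% in the 83 at 0, and the ranges overlapped (34.7% to 42.9% and 29.0% to 43.4%). The predicted folding energy per 100 nucleotides had a median of -38.8 kcal/mol in the former and -36.0 in the latter, with ranges of -57.3 to -26.3 and -54.2 to -20.9. Median hairpin length was 97.5 and 104 nucleotides. No test was made of these features. Against all annotated genes of the table, the cluster's hairpins were lower in GC (median 38.3% against 51.0%), and the energies were near each other (-37.3 and -37.9 kcal/mol).

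With 1 group, no comparison between conditions could be made. The libraries were compared for each gene by an exact binomial test (two-sided) after TMM scaling, with Benjamini-Hochberg adjustment over the 475 genes of the table with at least 10 counts. Of the 12 members tested, 2 passed an adjusted p of 0.05, 1 higher and 1 lower in replicate 2. Among all genes tested 38.9% passed, 18.1% higher and 20.8% lower in replicate 2. The members' share was 16.7%. Mir467e went from 3663 counts to 3864, with a log2 ratio of 0.26 (95% interval 0.20 to 0.33; exact binomial adjusted p = 3.12e-14). Mir467d went the other way, from 4200 to 3412, a log2 ratio of -0.12 (-0.18 to -0.05; exact binomial adjusted p = 0.00181). Both genes lie in the right stretch of the array, and their order by CPM differed between the libraries (890 and 988 for Mir467e, 1020 and 873 for Mir467d). The test covers counting error only. In edgeR's exact test with a dispersion estimated from these same libraries, 1 of the 475 genes (0.211%) passed and it was no member. At an unadjusted p under 0.05 in that test there were 31 genes and 0 members, so it separates few genes of any kind.

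The other 10 members did not pass the exact binomial test. Mir467c had a log2 ratio of 0.05 (-0.0047 to 0.11; adjusted p = 0.149), and Mir669o, Mir669l and Mir669c had -0.04, -0.06 and -0.12. Mir669e stood at 0.05 and Mir466n at -0.08. Mir669h, at 32 and 14 counts, had a log2 ratio of -0.98 (-2.03 to -0.06; exact binomial adjusted p = 0.0662). Mir297a-2 stood at 0.87 (-0.27 to 2.12), Gm22925 at -1.04 (-3.27 to 0.66) and Mir669f at -0.06 (-2.13 to 1.90), intervals that leave the direction unresolved at this depth. The median over the 12 was -0.06, against 0.02 over all genes tested. With TMM 4 of the 12 were higher and 8 lower in replicate 2. Scaling by library totals moves every log2 ratio by -0.11 and gave 2 higher and 10 lower, with 5 called (41.7%), 1 higher and 4 lower, Mir669o, Mir669l and Mir669h added. Under that scaling 41.1% of all genes tested were called, 11.4% higher and 29.7% lower. With DESeq2 size factors it was 38.9%, 14.1% higher and 24.8% lower, and the same 2 members were called. Whether the members' share lay below that of all genes depended on the scaling.

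**Figure D4:**
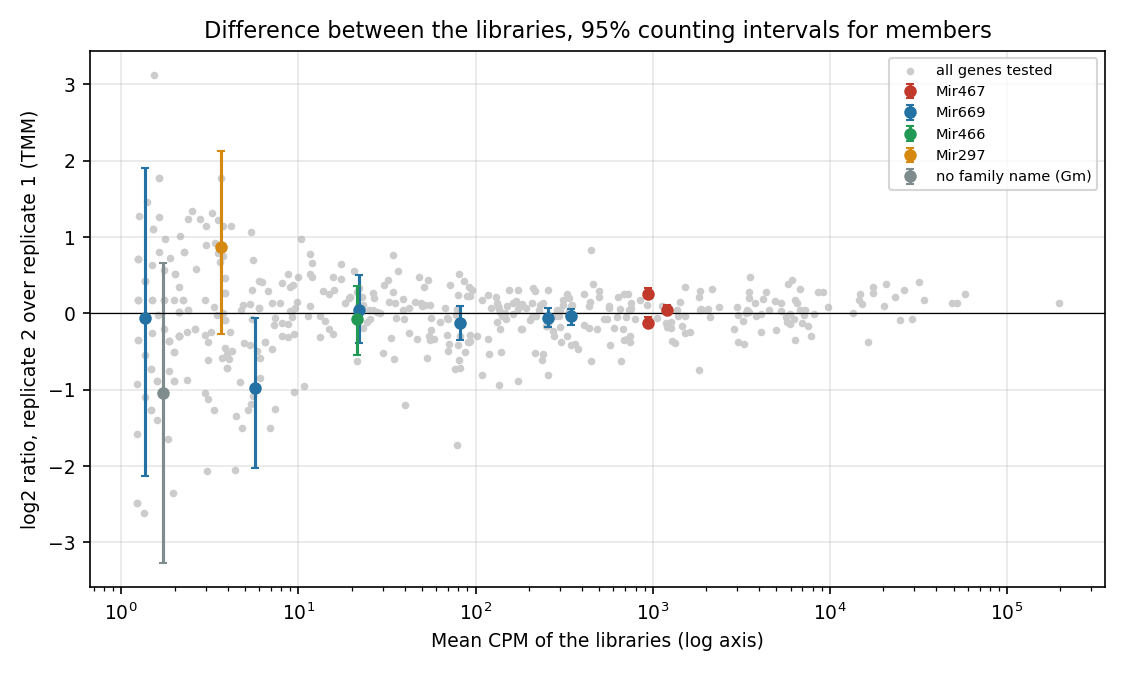
Log2 ratio of replicate 2 over replicate 1 after TMM scaling against mean CPM (log axis). Grey points are all 475 genes tested, and coloured points are the 12 members with 95% counting intervals. Mir467e lies above and Mir467d below 0, and the intervals widen to several log2 units for members under 10 CPM.

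Summed over its members, the cluster had a log2 ratio of 0.04 (exact 95% interval 0.01 to 0.07) with TMM. The sign of this sum depended on the scaling, being -0.01 with DESeq2 size factors and -0.07 with library totals, and without Mir467e it was -0.03 (interval -0.07 to 0.01). These values are small beside the 884-fold range among the members, and their direction was not resolved.

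Genes of the same families at other loci gave almost no reads. There are 10 in the tables outside the window: 5 Mir466, 3 Mir467, 1 Mir669 and 1 Mir297 gene. Mir466q on chromosome 3 had 0 and 1 counts, and the other 9, Mir467f, Mir467g, Mir467h, Mir466i, Mir466k and Mir669n among them, had 0 in both. All 10 have an unshared stretch, with a median unshared share of 70.0%, against 25.3% in the intron. Of the 10, 9 (90.0%) also share a stretch with other annotated hairpins, a median of 23.0 hairpins over the 10, against 19.0 in the intron. The 3 Mir467 genes outside stood at 0 beside 12943 and 11920 counts on Mir467 genes of the intron. The part of uncounted multi-mapped reads in these values was not tested.

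The Mir379 to Mir410 array on chromosome 12, another large imprinted cluster, differed in each of these measures. Of its 33 genes 31 had a count (93.9%), and it held 5.17% ± 0.777 of gene counts (n = 2), led by Mir487b with 79279 and 53867 counts. Of those genes 4 (12.1%) share a stretch of 20 nucleotides with another hairpin, against 105 (98.1%) in the Sfmbt2 intron and 49.0% of the table. Of the rodent Mir344 genes on chromosome 7, 12 of 13 (92.3%) share such a stretch. They share it with fewer hairpins, a median of 2.00 against 19.0 in the Sfmbt2 intron. Their median unshared share was 52.6%, against 25.3% in the intron. Of the Mir344 genes 6 of 13 (46.2%) had a count, with 139 and 111 counts in all, led by Mir344f with 40 and 56. The share of gene counts of the Sfmbt2 cluster lay between these clusters in both libraries, with no overlap. These shares sum over different numbers of genes and were not tested.

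The tissue label was checked against marker microRNAs. Of 10 measured markers of neural progenitors and neurons, 8 were detected, with 27236 and 23525 CPM in sum, led by Mir92b. Their levels were far apart. Mir92b and Mir137 had means of 13430 and 7852 CPM, and Mir153, Mir128-1, Mir9-3 and Mir128-2 had 2027, 746, 738 and 575. Mir124a-2, Mir9-2 and Mir124a-1 had 4.86, 4.73 and 1.74 CPM, counting only reads that could be placed. Mir124a-1 and the remaining measured marker were not detected, though neither was at 0 in both libraries. Markers of other cells were present too: endothelial Mir126a at 16042 and 18828 CPM, choroid plexus and multiciliated cells at 9745 and 6962 CPM (3 of 3 detected), and mesenchyme and mural cells at 3470 and 4200 CPM (4 of 5). Some lists differed between the libraries, as did single members. Erythroid markers summed to 150 CPM in replicate 1 and 76.2 in replicate 2, and sensory organ markers to 382 and 186 CPM. The 2 erythroid genes went opposite ways, with TMM log2 ratios of -1.73 for Mir451a and 0.77 for Mir144. The mesenchyme and mural list was led by Mir143, with 12687 and 15517 counts. Its genes also went both ways, with 0.47 for Mir143, 0.13 for Mir145a, -0.81 for Mir214 and -0.46 for Mir199a-2. Leukocyte and microglia markers summed to 259 CPM in each, liver Mir122 to 59.3 and 52.7, and striated muscle markers to 37.9 and 33.8, with Mir133a-1, Mir133a-2 and Mir133b at 0. Because the cluster is best known from trophoblast, the list for pluripotent cells and trophoblast is given as well. It summed to 1199 and 807 CPM, with 5 of 8 detected and Mir290a at 0, beside 3929 and 3749 CPM for the cluster. Mir302 genes made up most of that sum. Mir302a, Mir302d, Mir302b and Mir302c had means of 381, 345, 241 and 30.0 CPM, and Mir294 had 5.33 CPM. Mir293 and Mir292, neighbours of Mir294 that the list did not cover, had 9.59 and 3.23 CPM. The part of these cell types in the cluster's reads, or in the differences between the libraries, was not tested. In bulk tissue, fewer cells of a type and less RNA per cell cannot be told apart.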

How the data were processed

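Small RNA of 2 forebrain libraries of 1 group had been sequenced. Per the deposited read-me texts, the authors' tables were made on mm10 with GENCODE M4 from 1 alignment per library, and replicates were not pooled. Aligner and counter: not given in the sources used here. The deposited values are whole-number read counts per microRNA gene on either strand, the gene's strand and the opposite strand, of which the gene's strand was used. The 4 summary rows stayed out of library sizes. Replicate 1 held 10631040 reads with 4117752 gene counts (1 count equals 0.243 CPM), and replicate 2 held 10452225 with 3908953 (0.256 CPM). Over the genes detected (10 counts or more per library) a chi-square of 32540 on 376 degrees of freedom showed that the libraries are not copies.

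Identifiers were placed with GENCODE M21, on the same build. Of 1973 identifiers 1894 matched, and the 79 others, with 1 and 4 counts, could not be placed in the window. CPM and shares were computed in Python 3.11.15, and Wilson intervals and the exact interval of the summed ratio with SciPy 1.17.1. TMM factors came from edgeR 4.0.16. Log2 ratios of single genes and their exact intervals were computed in R 4.3.3. A prior count of 0.5 was added for the single-gene ratios and not for the intervals or the summed ratio. The exact binomial test was tested on simulated data. Shared stretches of 20 nucleotides were searched in 2202 GENCODE M21 microRNA transcripts in place of mature sequences in the genome, and folding energies came from RNAfold 2.7.2. Alternatives were DESeq2 1.42.0 size factors, library totals, other count minimums, strands, denominators and member bounds, and leaving out a library. Named members were those with 10 or more counts over both libraries, those that passed the test, those sharing no stretch, and the leading gene of each group compared. Others were named after their values were seen. Members, lists and tests were chosen with earlier results of these data known.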

Additional observations from a re-analysis of the deposited data

How the results depend on the processing

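The number of members with any count (24) became 10 with at least 10 counts in each library and stayed within 1.5 times under the other settings tried. Leaving out either library gave 21. The cluster's share of gene counts (0.384%) was 0.146% of all reads when unmapped and multi-mapped ones were included, and 0.000136% over the 2 members that share no stretch with another hairpin, an alternative added after seeing the data. Without replicate 1 the share was 0.375% and without replicate 2 0.393%. The 2 members that differed between the libraries became 5 with library totals and 0 in edgeR's exact test, whose dispersion was estimated from these same libraries, and were Mir467d and Mir467e with DESeq2 size factors, with no count filter and with at least 50 counts. The summed log2 ratio of 0.04 was -0.01 with DESeq2 size factors, -0.07 with library totals, 0.04 without Mir467c (its interval then reached 0) and -0.03 without Mir467e, the last added after seeing the data. With library totals Mir467c and Mir669e turned from 0.05 to -0.06. Of 56 single-gene values under other settings, 49 kept direction and call. The planned search of mature sequences in the genome was not run. No paired analysis was possible because there is 1 group. Depth limits what can be said of members under about 10 counts.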
